A study of Mus musculus with 24 samples.

Results

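The 4 Sox9 peak lists and the 4 H3K4me3 peak lists of mouse kidney cells taken 10 days after injury were compared, list against list. The 8 libraries were chosen by their titles (10d-1 to 10d-4, Sox9 or H3K4me3) and paired by number, because a number marks 1 frozen cell pellet. They are 8 of the 24 samples of the series and 8 of its 16 peak lists, and they hold 383569 of its 576562 peaks. The cells came from male Sox9IRES-CreERT2/+:R26RtdT/+ mice aged 9 to 12 weeks with bilateral renal ischaemia-reperfusion injury, in which tamoxifen given at the time of injury turned on a tdTomato reporter in cells with an active Sox9 gene. All 8 libraries therefore share the genotype, the injury, the tamoxifen and the sort for tdTomato. The Cre sits at 1 Sox9 allele, so the gene that drives the label is also the gene of the factor that was mapped, and the sort keeps cells by their Sox9 activity at injury and not at collection. Pellets of about 100000 cells were fixed in 0.2% paraformaldehyde, frozen and split into 3 aliquots for Sox9, for H3K4me3 (the positive control of the protocol) and for an input. The cell type label names day 10 on every sample of the series, including those titled 48 h, so the times were taken from the titles.

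CUT&RUN releases the DNA around an antibody-bound protein with a tethered nuclease, and the released fragments are sequenced. Sox9 is a transcription factor of the SoxE group that binds short AT-rich motifs and is switched on in kidney tubule cells after injury, where it marks cells that rebuild the tubule. H3K4me3 is a histone mark laid down at active promoters, above all at those rich in CpG dinucleotides, so a list of H3K4me3 peaks is usually dominated by gene starts.

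Promoters are shown here because the comparison turns on which gene starts had a peak of one antibody, of the other or of both. Each sequence runs from 250 bases before a listed RefSeq start to 50 after it (GRCm38.p6, the assembly of mm10), 5′ to 3′ on the strand of the gene, with CpG dinucleotides in capitals. The first pair leads the genes with Sox9 peaks and no H3K4me3 peak at the listed start, Cyba (chr8:122432891-122433190, minus strand) and Cnih2 (chr19:5098472-5098771, minus strand). The second pair leads the genes with H3K4me3 peaks and no Sox9 peak, Pcgf5 (chr19:36348079-36348378, plus strand) and Rubcn (chr16:32868317-32868616, minus strand). The others are Krtap6-2 (chr16:89420062-89420361, minus strand), the 1 gene start with a peak in all 8 lists, Gapdh (chr6:125165724-125166023, minus strand) and Wnt4 (chr4:137277385-137277684, plus strand); Gapdh and Wnt4 were chosen for display after their values were seen.
Cyba: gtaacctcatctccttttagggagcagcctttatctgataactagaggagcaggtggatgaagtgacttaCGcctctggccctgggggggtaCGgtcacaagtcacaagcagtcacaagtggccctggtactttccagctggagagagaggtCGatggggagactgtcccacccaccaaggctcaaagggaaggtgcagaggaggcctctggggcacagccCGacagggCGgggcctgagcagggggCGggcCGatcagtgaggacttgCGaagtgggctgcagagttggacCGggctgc
Cnih2: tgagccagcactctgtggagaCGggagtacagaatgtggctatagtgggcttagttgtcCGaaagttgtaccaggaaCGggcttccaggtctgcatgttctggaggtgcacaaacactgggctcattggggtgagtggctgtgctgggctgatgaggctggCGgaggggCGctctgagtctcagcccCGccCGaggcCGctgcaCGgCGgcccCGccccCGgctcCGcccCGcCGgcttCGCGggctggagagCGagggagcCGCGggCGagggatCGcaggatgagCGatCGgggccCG
Pcgf5: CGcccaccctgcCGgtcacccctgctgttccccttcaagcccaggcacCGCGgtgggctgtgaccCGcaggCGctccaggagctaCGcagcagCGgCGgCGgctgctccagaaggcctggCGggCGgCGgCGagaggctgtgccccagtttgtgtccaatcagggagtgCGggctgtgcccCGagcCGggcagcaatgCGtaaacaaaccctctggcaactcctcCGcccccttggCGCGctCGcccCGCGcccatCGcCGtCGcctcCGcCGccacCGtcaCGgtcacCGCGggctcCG
Rubcn: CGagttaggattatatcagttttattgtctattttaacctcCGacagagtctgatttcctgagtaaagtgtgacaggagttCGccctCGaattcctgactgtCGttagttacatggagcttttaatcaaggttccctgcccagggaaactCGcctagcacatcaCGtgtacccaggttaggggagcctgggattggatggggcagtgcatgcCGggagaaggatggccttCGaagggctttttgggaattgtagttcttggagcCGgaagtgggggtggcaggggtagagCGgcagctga
Krtap6-2: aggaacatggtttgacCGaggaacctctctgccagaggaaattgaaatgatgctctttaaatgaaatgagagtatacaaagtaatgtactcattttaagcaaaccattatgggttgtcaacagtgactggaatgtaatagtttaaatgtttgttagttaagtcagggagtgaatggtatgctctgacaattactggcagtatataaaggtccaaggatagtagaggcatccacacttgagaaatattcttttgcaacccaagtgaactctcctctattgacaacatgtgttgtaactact
Gapdh: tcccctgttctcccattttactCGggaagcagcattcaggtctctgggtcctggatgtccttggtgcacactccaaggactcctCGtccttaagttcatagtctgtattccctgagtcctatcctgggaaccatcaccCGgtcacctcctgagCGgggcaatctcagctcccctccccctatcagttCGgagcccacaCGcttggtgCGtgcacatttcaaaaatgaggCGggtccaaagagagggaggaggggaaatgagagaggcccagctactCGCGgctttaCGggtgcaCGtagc
Wnt4: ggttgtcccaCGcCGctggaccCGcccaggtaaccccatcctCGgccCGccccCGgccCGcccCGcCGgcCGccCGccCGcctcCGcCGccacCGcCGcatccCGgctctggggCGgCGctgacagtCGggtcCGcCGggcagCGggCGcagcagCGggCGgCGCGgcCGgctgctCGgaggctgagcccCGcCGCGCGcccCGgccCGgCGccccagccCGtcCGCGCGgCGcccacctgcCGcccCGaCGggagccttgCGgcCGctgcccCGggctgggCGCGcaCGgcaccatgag
The Cyba window holds 9 CpG dinucleotides, Cnih2 25, Pcgf5 34, Rubcn 11, Gapdh 12 and Wnt4 51. The Krtap6-2 window holds 1, and it alone of these windows holds the letters AACAAT or ACAAAG (either strand), the core letters of Sox motifs that were searched.

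The lists differed widely in length within both antibodies. On chromosomes 1 to 19, X and Y the Sox9 lists of pellets 1 to 4 held 85415, 14793, 17382 and 39691 peaks, and the H3K4me3 lists 88496, 30936, 74368 and 32381. The ranges overlapped, and the log2 list length differed by -0.73 (two-sided exact permutation test of 4 against 4 lists, p = 0.371). Sequencing depth is unknown, so precision rests on the 4 pellets. To set lists of unequal length on a par, the measures below are means over 20 draws of 14793 peaks at random from each list, the length of the shortest one, unless full lists are named. Such draws keep a smaller part of a longer list, so positions that truly recur between lists are thinned unevenly. Peak height is given in steps, because within a list nearly all heights are whole multiples of its lowest height. Between 92.5% and 97.5% of a list was at 1 step, the lowest possible height. What 1 step holds in fragments was not given in the sources used here, so step numbers of different lists are not on a common scale. In bulk libraries, fewer marked cells and a weaker mark per cell cannot be told apart. With 70 arrangements of 4 against 4 lists the smallest p is 0.0286. The paired test over 4 pellet differences (16 sign flips) cannot reach 0.05.

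Pellet 1 stood apart from the other pellets in opposite ways for the 2 antibodies. Its Sox9 list had the lowest share of peaks at gene starts of all 8 lists and its H3K4me3 list the highest, 3.28% and 8.20% in equal draws. The results below are given with and without this pellet where they turn on it, a choice made after seeing the data. With 3 pellets against 3 the smallest p is 0.1.

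The share of peaks at gene starts did not separate Sox9 from H3K4me3. The share of summits within 1000 bp of a listed start of a protein-coding gene was 3.28%, 6.44%, 7.12% and 4.97% for Sox9 in pellets 1 to 4 and 8.20%, 5.77%, 5.73% and 5.46% for H3K4me3. All 8 shares exceeded the 1.40% of the chromosome span that lies in these windows. Sox9 averaged 5.45% ± 1.70 (SD, n = 4) and H3K4me3 6.29% ± 1.28 (SD, n = 4), a difference of -0.84 percentage points, less than the spread between lists (two-sided exact permutation test, p = 0.457). Sox9 was higher in 2 of 4 pellets, and the paired test gave p = 0.875 (exact sign flips). Without pellet 1 the difference turned to 0.522 percentage points in the other direction (two-sided exact permutation test, p = 0.5). A Sox9 draw reached the starts of 837 ± 259 genes (SD, n = 4) and an H3K4me3 draw those of 980 ± 204 (SD, n = 4) (two-sided exact permutation test, p = 0.457).

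The shares elsewhere in the genome did not separate the antibodies either. Gene bodies held 47.3% ± 2.17 (SD, n = 4) of the Sox9 summits and 47.7% ± 0.267 (SD, n = 4) of the H3K4me3 summits, against 38.7% of the span. Positions over 50000 bp from any protein-coding gene held 27.2% ± 2.08 (SD, n = 4) and 26.6% ± 0.179 (SD, n = 4), against 36.8% of the span. Neither difference passed (exact permutation of the lists, two-sided, p = 0.886 for gene bodies and p = 0.8 for far positions). The H3K4me3 lists lay within a narrow band in both measures, from 47.3% to 48.0% in gene bodies, whereas the Sox9 lists ranged from 44.3% in pellet 1 to 49.1% in pellet 2. The 3′ ends of genes, added as a comparison after seeing the data, held 1.93% ± 0.167 (SD, n = 4) of Sox9 summits and 2.00% ± 0.0700 (SD, n = 4) of H3K4me3 summits, against 1.26% of the span (two-sided exact permutation test, p = 0.457).

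**Figure D1:**
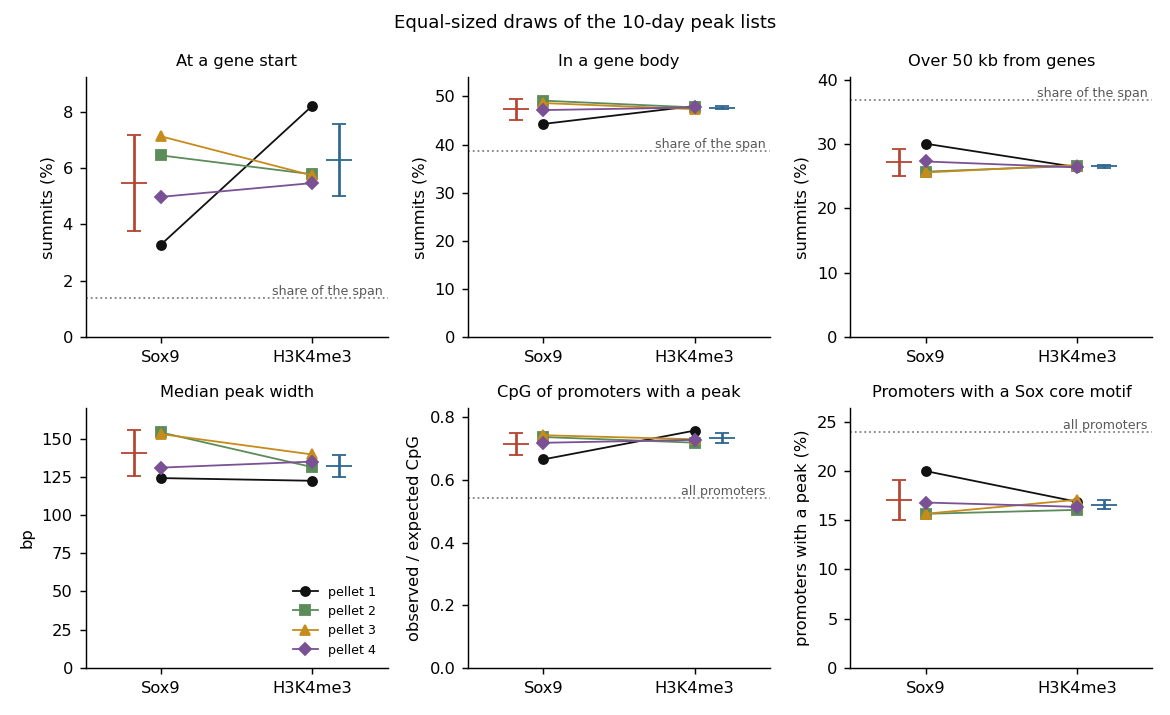
Each panel shows 1 measure (y axis, units on the axis) in equal-sized draws of the 4 Sox9 and the 4 H3K4me3 lists at 10 days. Lines join the lists of a pellet, crossbars show the mean and SD of 4 lists, and dotted lines show the share of the chromosome span or the value over all promoters. Pellet 1 runs from the lowest Sox9 value (3.28%) to the highest H3K4me3 value (8.20%) at gene starts, while the other pellets lie between 4.97% and 7.12%.

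Among tall peaks pellet 1 stood further apart. In the full lists, gene starts held 5.70%, 14.6%, 17.6% and 11.6% of the Sox9 peaks that reached 2 steps, and 38.7%, 11.7%, 19.3% and 11.1% of such H3K4me3 peaks, in pellets 1 to 4. The high H3K4me3 peaks of pellet 1 thus lay at starts far more often than those of any other list, and the high Sox9 peaks of the same pellet less often than those of any other list. On equal draws of such peaks the means were 12.5% and 20.2% (difference -7.68, two-sided exact permutation test, p = 0.429), and without pellet 1 they were 14.8% and 13.6% (p = 0.7, exact). Among 1-step peaks, the bulk of each list, the means were 5.26% and 5.35% (p = 0.943, exact).

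Peaks above 1 step took up 3.13% ± 0.746 (SD, n = 4) of the full Sox9 lists and 4.72% ± 2.00 (SD, n = 4) of the full H3K4me3 lists (two-sided exact permutation test, p = 0.2). The difference of -1.60 percentage points was -0.671 without the H3K4me3 list of pellet 1 (exact permutation test, p = 0.371). Peaks of 3 or more steps made up 0.270%, 0.622%, 0.489% and 0.401% of the full Sox9 lists and 1.28%, 0.653%, 0.640% and 0.682% of the full H3K4me3 lists. Here the groups did not overlap and Sox9 was lower in 4 of 4 pellets (difference -0.369 percentage points, two-sided exact permutation test, p = 0.0286, the smallest the design can give). In pellet 2 the gap was 0.622% against 0.653%. Without the H3K4me3 list of pellet 1 the difference was -0.213 (p = 0.0571, exact permutation test), and without pellet 1 it was -0.155 (p = 0.1, the smallest possible with 3 against 3, exact). The step threshold of 3 was an alternative to 2, so this p is 1 of several tried.

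Around gene starts, in the full lists, both antibodies gave a narrow peak of summits on a flat background. Summits per bin within 250 bp of a start exceeded those 4000 to 5000 bp away 3.04-, 5.61-, 7.48- and 4.53-fold in the Sox9 lists and 9.14-, 5.52-, 5.83- and 5.39-fold in the H3K4me3 lists (two-sided exact permutation test, p = 0.371). For peaks of 2 or more steps the ratios were 4.55, 9.33, 24 and 15.3 for Sox9 and 43.6, 12.4, 23.0 and 15.7 for H3K4me3 (p = 0.286, exact). Over all peaks, the 250 bases just after the start were the richest bin in the 4 Sox9 lists and in the H3K4me3 lists of pellets 2, 3 and 4. In the H3K4me3 list of pellet 1 it was the 250 bases just before the start. Of the summits within 1000 bp of a start, the share that lay after it was 58.3%, 63.7%, 64.1% and 62.1% for Sox9 and 52.5%, 63.5%, 59.6% and 61.4% for H3K4me3. Sox9 was higher in 4 of 4 pellets, by 2.80 percentage points on average, a gap that did not pass over lists (two-sided exact permutation test, p = 0.371). For the taller peaks, at 2 steps and above, these shares averaged 70.7% ± 7.57 and 61.2% ± 11.8 (SD, n = 4 each), with Sox9 higher in 3 of 4 pellets and lower in pellet 4 (68.0% against 73.8%; p = 0.229, exact permutation test).

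**Figure D2:**
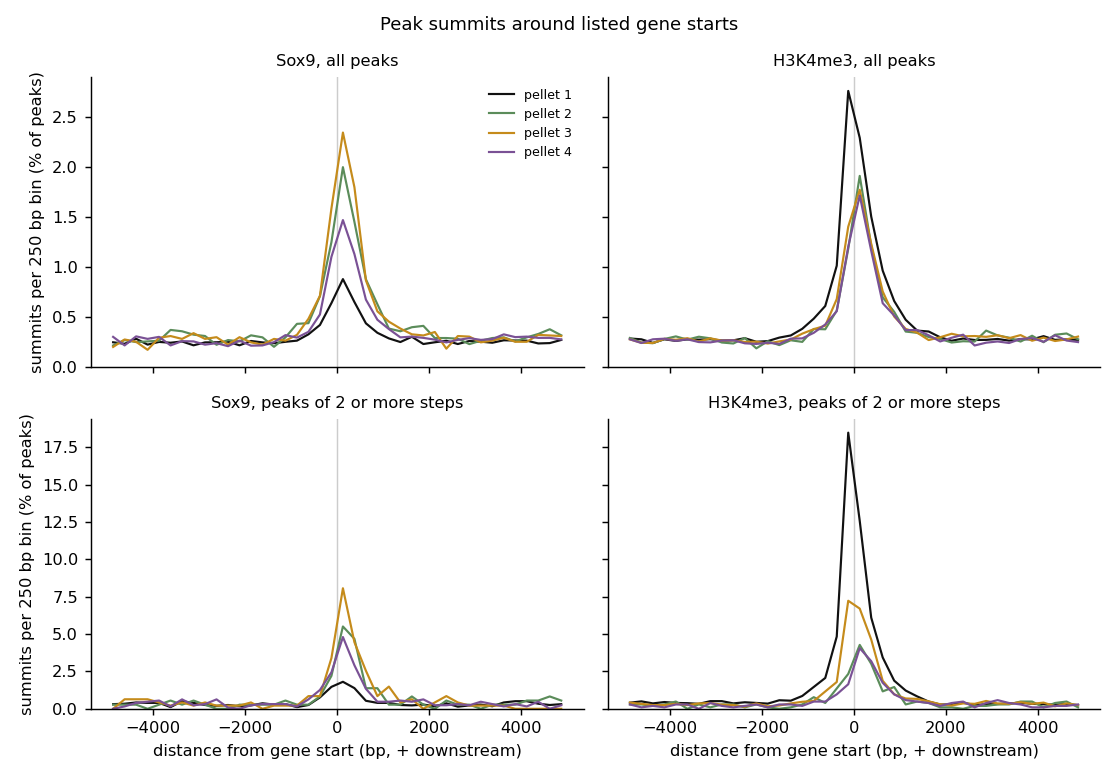
Summits per 250 bp bin (y axis, % of the peaks of a list) against distance from a listed gene start (x axis, bp, positive downstream), for Sox9 (left) and H3K4me3 (right), all peaks (top) and peaks of 2 or more steps (bottom), with 1 line per pellet. The H3K4me3 list of pellet 1 peaks just upstream of the start and highest, and the Sox9 list of pellet 1 lowest, in both rows. In the bottom row the H3K4me3 list of pellet 3 peaks just upstream too. Full lists are shown.

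Peak width did not separate the antibodies. Median width was 124, 154, 153 and 131 bp for Sox9 and 122, 131, 140 and 135 bp for H3K4me3, or 140.5 ± 15.2 (SD, n = 4) against 132 ± 7.28 bp (SD, n = 4) in equal draws (two-sided exact permutation test, p = 0.343). The narrowest peak of a list was 96 to 116 bp for Sox9 and 89 to 102 bp for H3K4me3, a floor that differed between lists. Measured from that floor, the medians of the full lists were 34.25 ± 4.50 (SD, n = 4) and 34.75 ± 2.36 bp (SD, n = 4; p = 0.914, exact permutation test). Peaks of 500 bp or more made up 0.267% ± 0.0833 (SD, n = 4) and 0.292% ± 0.00769 (SD, n = 4; p = 0.657, exact permutation test). Peaks at gene starts were wider than the rest by 4, -1, 2 and 6 bp in the full Sox9 lists and by 27, 6, 13 and 5 bp in the full H3K4me3 lists. That difference was larger for H3K4me3 in the means, 12.75 ± 10.1 against 2.75 ± 2.99 bp (SD, n = 4 each), and did not pass (two-sided exact permutation test, p = 0.0857).

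Promoters with a peak were CpG-rich for both antibodies. Their observed over expected CpG ratio averaged 0.716 ± 0.0351 in the Sox9 lists and 0.734 ± 0.0166 in the H3K4me3 lists (SD, n = 4 each), against 0.542 over all 21262 listed promoters (two-sided exact permutation test between antibodies, p = 0.486). In the full lists, promoters with a ratio of at least 0.6 had a peak 2.03, 3.12, 3.25 and 2.67 times as often as the rest in the Sox9 lists and 3.44, 2.86, 2.82 and 2.85 times as often in the H3K4me3 lists. The letters AACAAT or ACAAAG stood in 17.03% ± 2.05 (SD, n = 4) of the promoters with a Sox9 peak and in 16.6% ± 0.471 (SD, n = 4) of those with an H3K4me3 peak, against 24% of all promoters. The difference was 0.433 percentage points (two-sided exact permutation test, p = 0.886). Of the CpG-rich promoters 14.9% hold the letters and of the CpG-poor ones 32.3%. The shares for promoters with a peak of either antibody lay between these values. Whether CpG class accounts for them was not tested.

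Closeness of Sox9 summits to H3K4me3 summits of their own pellet could not be told from closeness to those of other pellets. The median distance was 52345 ± 3065 bp (SD, n = 4) within a pellet and 52296 bp between pellets. Within 1000 bp lay 2.61% ± 0.618 (SD, n = 4) of the Sox9 summits in the same pellet and 2.57% in other pellets, where the range was 1.80% to 3.30% (exact permutation of pellet numbers, one-sided, p = 0.333; the smallest p of this test is 0.0417). The windows of 1000 bp around the drawn H3K4me3 summits covered 1.10% of the chromosome span. Sharing of positions did not follow the antibody, since 2.62% of summits had one of the other list within 1000 bp for pairs of an antibody and 2.57% for mixed pairs (two-sided exact permutation of antibody labels, p = 0.4). The closest pair of lists was Sox9 of pellets 2 and 3, at 3.89%, and the mixed pairs reached 3.31%. These are the 2 shortest lists, of which a draw keeps most or all peaks. Equal draws even out matches by chance, but they thin truly shared positions more in long lists. The order of the pairs, and the comparisons by pellet and by antibody, therefore also depend on list length.

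**Figure D3:**
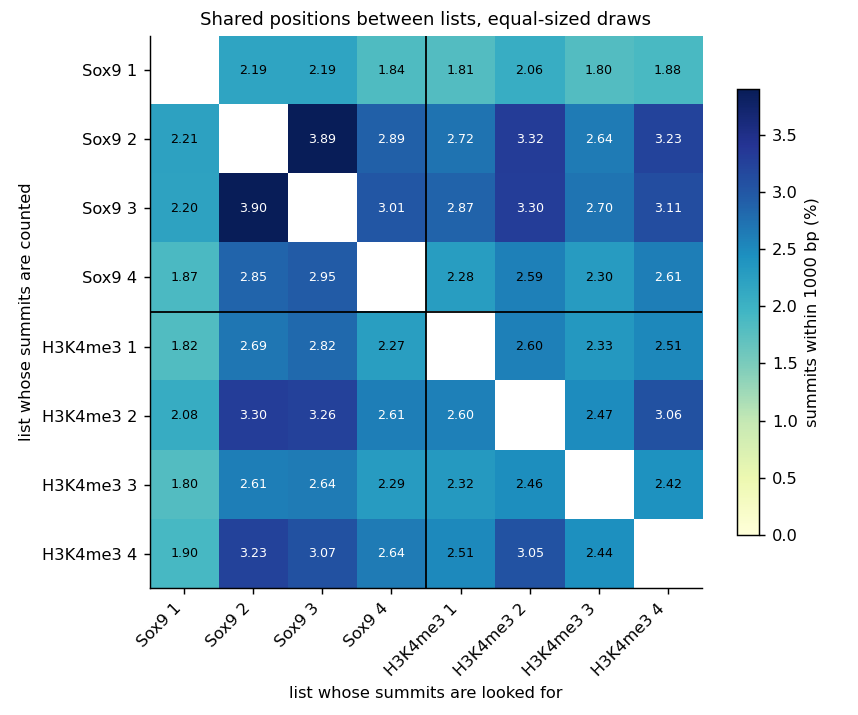
Share of summits (colour and number, %) of the list on the y axis with a summit of the list on the x axis within 1000 bp, in equal-sized draws; black lines divide Sox9 from H3K4me3 lists. The blocks within and between antibodies have like values, and the row and column of Sox9 list 1 are the lowest. A draw keeps a smaller part of a long list, and Sox9 list 1 is the longest Sox9 list.

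The few positions that were shared were partly gene starts. Of the Sox9 summits within 1000 bp of an H3K4me3 summit of their pellet, 16.1%, 17.4%, 21.2% and 13.9% lay at a gene start in pellets 1 to 4, against 3.05%, 6.07%, 6.73% and 4.73% of the Sox9 summits with none so near. Seen from the other side, 8.89%, 8.95%, 8.06% and 7.32% of the Sox9 summits at gene starts had an H3K4me3 summit that near. Between 72.2% and 82.8% of the near summits lay neither at a start nor in a region found in all 8 lists.

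Tall Sox9 peaks were nearer to H3K4me3 peaks than low ones. In pellets 1 to 4, 1.68%, 2.80%, 2.51% and 2.31% of the 1-step Sox9 peaks of the full lists lay within 1000 bp of a drawn H3K4me3 summit of their pellet. For Sox9 peaks of 3 or more steps (85 to 231 per list) the shares were 16.6%, 49.9%, 19.8% and 37.9%. The H3K4me3 lists of pellets 2 and 4 were shorter than those of pellets 1 and 3, so a draw keeps more of them. These shares are therefore not comparable between pellets. Against the H3K4me3 peaks of 2 or more steps in the full list, 63.2%, 85.9%, 76.5% and 57.9% of these tall Sox9 peaks had one within 1000 bp. Against other pellets the share rose with height too, to 26.3%, 27.5%, 35.7% and 25.2% of the tall Sox9 peaks of pellets 1 to 4. That was above the share for the own pellet in pellets 1 and 3 and below it in pellets 2 and 4. At gene starts lay 3.90%, 2.17%, 9.41% and 5.03% of the tall Sox9 peaks, against 3.31%, 6.44%, 7.13% and 5.00% of all Sox9 peaks of the same full lists. Regions found in all 8 lists, which hold an H3K4me3 peak by definition, held 0.0890%, 0.608%, 0.518% and 0.234% of the Sox9 peaks. Tall peaks made up 0.270%, 0.622%, 0.489% and 0.401% of the same lists. The rise with height was not tested without these regions, so it does not show closeness at other Sox9 sites.

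**Figure D4:**
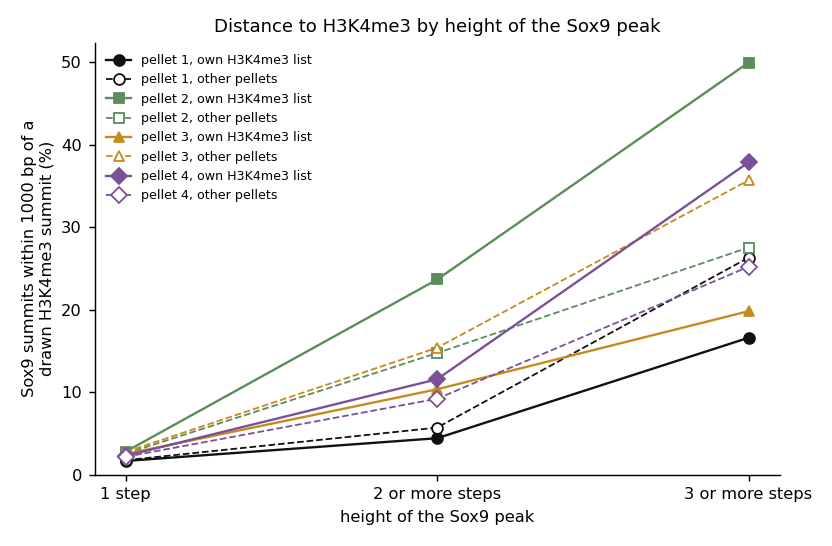
Share of Sox9 summits within 1000 bp of a drawn H3K4me3 summit (y axis, %) by height of the Sox9 peak (x axis), with filled symbols for the H3K4me3 list of the same pellet and open symbols for the mean over the other pellets. The shares rise with height in 4 of 4 pellets, from 1.68% to 2.80% at 1 step to 16.6% to 49.9% at 3 or more. A draw keeps more of a short H3K4me3 list than of a long one, so the shares are not comparable between pellets.

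Merged over the 8 full lists the peaks formed 361286 regions, of which 95.3% had a peak in 1 list only. Regions with both antibodies in at least 1 list each made up 6.59% of the Sox9 regions and 4.66% of the H3K4me3 regions. Just 58 regions had a peak in all 8 lists, and 15 of these lay in a gene. The highest was chr2:98666560-98667323, with 3151, 429, 510 and 1233 steps in the Sox9 lists and 2045, 832, 2019 and 757 in the H3K4me3 lists, 2348772 bp from the nearest listed start. Next came chr9:35305246-35305589, with 58 to 610 steps for Sox9 and 118 to 423 for H3K4me3, chr2:98662239-98662974, chr9:3005390-3038298 and chr14:19415732-19419633. These 5 regions overlapped no protein-coding gene, and at each the ranges of the antibodies overlapped. No list of artefact-prone regions was used.

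Heights at the 58 regions were also compared after each list was centred on its own median over them, a comparison added after seeing the data. None of the 58 (0%) had every Sox9 height above every H3K4me3 height, and 3 (5.17%) had the reverse. Of these, chr17:4626160-4626605 had 38, 36, 27 and 70 steps for Sox9 and 344, 216, 135 and 177 for H3K4me3. The second, chr11:25100071-25100208, had 45, 24, 26 and 50 against 221, 166, 121 and 131. Neither lies in a protein-coding gene. The centred log2 differences were -1.59 and -1.41. The third, chr14:124801563-124802239, differed by -0.31 (4 to 14 against 12 to 19 steps) in the centred heights, and at 48 h, relative to the highest region of a list, it did not pass (two-sided exact permutation test, p = 0.514). Larger mean differences stood at chr12:69159294-69159593 (-1.68), chr10:83954475-83954673 (-1.73) and chr6:125876905-125877257 (-1.73). At those regions the centred heights of the antibodies overlapped. In the 48 h lists, which had no part in this choice, chr17:4626160-4626605 had 51 to 74 steps for Sox9 and 119 to 216 for H3K4me3, and chr11:25100071-25100208 had 33 to 56 and 101 to 163. Because steps of different lists share no scale, the 48 h test used heights within a list, on a scale chosen after seeing the data. Taken as a percentage of the highest region of the same list, the 48 h values at the chr11 region were 8.97% ± 3.23 and 15.2% ± 2.20 (SD, n = 4 each; p = 0.0286, exact permutation test). At the chr17 region they were 12.1% ± 4.35 and 18.4% ± 4.36 (SD, n = 4 each), which did not pass (p = 0.114, exact permutation test). On that scale the 10-day values of the chr17 region, which were used to choose it, were 5.14% ± 2.96 and 18.2% ± 8.59 (SD, n = 4 each) and overlapped.

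In the full lists, regions with 4 lists of one antibody and 0 of the other numbered 1 for Sox9 (0.000277% of the merged regions) and 36 for H3K4me3 (0.00996%), out of 81 and 213 with all 4 lists of that antibody. In draws of equal size the counts were 1.25 for Sox9 (range 0 to 3) and 0.85 for H3K4me3 (range 0 to 2). A draw keeps a smaller part of a longer list, and the H3K4me3 lists were longer in pellets 1 to 3. A region in all 4 H3K4me3 lists was therefore lost more often, and the order in the draws cannot be read as a result. Without pellet 1 the full lists gave 9 and 110 and the draws 14.55 and 6.6. The regions named next are therefore a description of the full lists. The Sox9 region, chr11:53478463-53478970 within Sowaha, had 2, 1, 1 and 1 steps. The highest H3K4me3 region was chr14:104336949-104337067, outside any protein-coding gene, with 128, 103, 66 and 74 steps and no Sox9 peak in any of the 4 lists. At 48 h the same position had 82, 87, 71 and 0 steps for H3K4me3 and 23, 0, 0 and 0 for Sox9. The next ranks, at chr5:110567142-110567465 within Galnt9 and at chr13:31774138-31774361, had their height from pellet 3 (335 and 139 steps, at most 3 elsewhere). They were followed by chr1:43200371-43201228 (3, 5, 3 and 4 steps) and chr8:124897462-124898318 at the shared start of Sprtn and Exoc8 (6, 2, 1 and 1 steps). In all, 7 of the 36 regions lay within 1000 bp of a listed start. At 48 h the 36 regions had a peak in 31.25% of the region and list pairs for H3K4me3 and in 17.4% for Sox9, whereas the 58 common regions had one in 93.5% and 89.2%. The 48 h lists also differed in length, by -1.03 in mean log2 (Sox9 minus H3K4me3). Over all genes, the start had a peak in 10.8% of the gene and list pairs for H3K4me3 and in 6.53% for Sox9 at 48 h. A higher share for H3K4me3 was thus not particular to the 36 regions.

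Of the 17491 genes with a listed start, 5650 had a Sox9 peak there in at least 1 of the 4 full lists, 9314 an H3K4me3 peak, 3888 both and 6415 neither. Genes with a peak of one antibody in at least 3 of 4 lists and of the other in none numbered 18 for Sox9 (0.103% of genes) and 360 for H3K4me3 (2.06%). The full lists differ in length, and on equal draws the counts shrank to 12.15 genes for Sox9 (range over draws 8 to 18, 0.0695% of genes) and 22.7 for H3K4me3 (14 to 31, 0.13%). Without pellet 1, and so with 3 of 3 lists required, the full lists gave 11 and 76 genes and the draws 5.1 and 4.8. The gap between the antibodies was smaller in the draws, and without pellet 1 it was absent there. However, a draw of 14793 peaks keeps a smaller part of a longer list. A gene that recurs in long lists is therefore lost more often, and the H3K4me3 lists were longer in pellets 1 to 3. The smaller gap in the draws is thus partly built in, and neither count sets the antibodies on a par. Genes with a peak in at least 3 lists numbered 167 for Sox9 and 842 for H3K4me3, and the 31 that met both rules were 18.6% of the former and 3.68% of the latter.

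The leading Sox9-only gene was Cyba (chr8:122424771-122432940), which encodes the p22phox subunit of the superoxide-producing NADPH oxidase. It had 1, 1, 1 and 2 steps in the Sox9 lists and no H3K4me3 peak. Its summits lay at -825 and -973 bp from the start in pellets 1 and 2 (before it) and at 222 and 296 bp in pellets 3 and 4 (after it), all outside the printed window. Cnih2, an auxiliary protein of AMPA receptors, had 1 step in pellets 2, 3 and 4 with summits 41, 211 and 156 bp after the start. Counted at either end of the gene, Cnih2 had H3K4me3 peaks of 1 step in 3 lists too, in pellets 1, 2 and 3. Slc44a1 (a choline transporter) and Limk2 (a kinase that acts on cofilin) had Sox9 peaks in pellets 2, 3 and 4. So did Ppp1r12c (a myosin phosphatase subunit) and Zfpm1 (a cofactor of GATA factors). Mapk11, which encodes p38 beta, was reached in pellets 1, 2 and 3, and Tpst1, a tyrosine sulfotransferase of the Golgi, in pellets 1, 2 and 4. All peaks at these genes stood at 1 or 2 steps, which is the level of most peaks of a list. Counted at either end of the gene, Ppp1r12c, Zfpm1 and Tpst1 had an H3K4me3 peak of 1 step in 1 list each.

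The 8 leading H3K4me3-only genes likewise had low peaks, of 1 to 3 steps. Pcgf5, a subunit of Polycomb repressive complex PRC1, had 2, 1, 2 and 1 steps and no Sox9 peak, with summits inside the printed window at -96, -119 and 5 bp from the start in pellets 1, 2 and 4. Rubcn, a brake on autophagy, had 2, 1, 1 and 1 steps, and Cpsf6, which acts in mRNA 3′ end cleavage, had 3, 1, 1 and 1. Cnot6, a deadenylase of the CCR4-NOT complex, had 3, 1, 3 and 1 steps, with summits at -50, -66 and -48 bp from the start in pellets 1 to 3 and at 149 bp in pellet 4. Klc3 (kinesin light chain), Mmab (cobalamin adenosyltransferase), Ctdnep1 (a phosphatase of the nuclear envelope) and Elp5 (an Elongator subunit) stood at 1 step in 4 of 4 lists. Ctdnep1 and Elp5 are neighbours that count the same summits. Counted at either end of the gene, Klc3 and Cnot6 had a Sox9 peak of 1 step in 1 list each.

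The full 48 h lists gave a view of these genes from samples that had no part in their choice. There the 18 Sox9-only genes had a Sox9 peak in 9.72% of the gene and list pairs, 1.53 ± 0.532 times the share of all genes (SD, n = 4), and an H3K4me3 peak in 22.2%, 2.00 ± 0.687 times (SD, n = 4). The 360 H3K4me3-only genes had a Sox9 peak 1.65 ± 0.397 times (SD, n = 4) and an H3K4me3 peak 1.78 ± 0.0620 times (SD, n = 4) as often as all genes. The ratios of the antibodies differed by less than the spread between lists in both sets (exact permutation, two-sided, p = 0.314 for the first and p = 0.629 for the second). Neither set was tested against all genes, and in the Sox9 list 3 of 48 h the 18 genes stood below them (5.56% against 7.54%). Cyba, the 1 Sox9-only gene with 4 of 4 lists, had no peak of either antibody at 48 h, and Slc44a1 had none for Sox9 and 3 of 4 for H3K4me3.

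Krtap6-2, a hair keratin-associated protein gene, was the 1 gene start found in all 8 lists. It had 16, 10, 5 and 7 steps in the Sox9 lists and 14, 13, 13 and 15 in the H3K4me3 lists, with the tallest summit 100 to 129 bp after the start in each list. At 48 h it was again present in 8 of 8 lists (9 to 12 steps for Sox9 and 8 to 17 for H3K4me3).

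The fixed genes of kidney injury and Sox9 biology were described 1 by 1. In the full lists all genes had a peak in 9.99% of the gene and list pairs for Sox9 and in 19.9% for H3K4me3, so a gene with 1 list is no exception. Wnt4, a ligand induced in injured tubule, had a 1-step Sox9 peak in pellet 1 with its summit at -2 bp, and 1-step H3K4me3 peaks at -605 and 963 bp in pellet 1 and at -695 bp in pellet 4. Cdh6, a cadherin of the developing tubule, had 1 step for Sox9 in pellet 2 and 1 step for H3K4me3 in pellet 3. Lrp2 (megalin, the endocytic receptor of proximal tubule) and Krt8 (a keratin of injured tubule) each had 1 Sox9 list, pellet 1, and no H3K4me3 list. Pax8, a nephron lineage factor, had 1 H3K4me3 list and no Sox9 list, and Hnf4a and Havcr1 (Kim-1) had no peak in any list. Gapdh had H3K4me3 peaks in pellets 1 and 4 (2 and 1 steps, 91 and 63 bp after the start) and no Sox9 peak. Sox9, Col2a1, Vcam1 and Actb have no listed start in the table. Within 1000 bp of either end of the gene Sox9 had 1 Sox9 list and no H3K4me3 list, Col2a1 had 2 and 1, and Vcam1 and Actb had none.

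The full H3K4me3 list of pellet 1 had a peak of 2 or more steps at 2662 of the 17491 starts (15.2%), against 125 to 770 starts in the full H3K4me3 lists of the other pellets. In that list the share was 9 of 18 housekeeping genes, 26 of 64 genes of cytoplasmic ribosomal proteins and 8 of 19 immediate early genes. Psmb4 (a proteasome subunit) had 4 steps and Eef1a1 (translation elongation factor), Sdha (succinate dehydrogenase) and Snrpd3 (a core protein of the spliceosome) and Pgk1 (a glycolytic kinase) 3 each. Jun and Junb, subunits of AP-1, had 3 steps, and Klf2, Klf6, Fosb, Egr2, Dusp1 and Hspa1b had 2. Of the 19 kidney transcription factor genes 6 were marked at this height: Pax2, Six2, Pou3f3, Gata3, Foxc1 and Esrrg, with 2 steps each. By contrast 0 of 18 injured tubule genes, 1 of 23 proximal tubule genes (Ggt1), 0 of 11 endothelial genes, 1 of 18 immune genes (C1qb) and 1 of 940 olfactory receptor genes reached 2 steps.

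In the other 7 full lists these 2662 starts had a peak more often than the rest, for both antibodies. The Sox9 lists had a peak at 22.6%, 9.35%, 13.4% and 17.2% of them and at 14.5%, 4.95%, 6.22% and 10.2% of the remaining starts. The ratio was 1.82 ± 0.257 in the Sox9 lists (SD, n = 4) and 1.89 ± 0.152 in the H3K4me3 lists of pellets 2 to 4 (SD, n = 3) (two-sided exact permutation test of 4 against 3 lists, p = 0.686). The starts chosen in the H3K4me3 list of pellet 1 did not separate the antibodies in the other lists by this test.

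Gene lists spread over a wide range within each antibody. In equal draws the start had a peak in 4.78% ± 1.48 of all genes in the Sox9 lists (SD, n = 4) and in 5.60% ± 1.17 in the H3K4me3 lists (SD, n = 4). Housekeeping genes stood at 10.6% and 10.0%, kidney transcription factors at 8.82% and 8.62%, Wnt pathway genes at 8.90% and 9.66% and Hox genes at 7.56% and 9.60%. Ribosomal protein genes stood at 4.67% and 6.86% and immediate early genes at 5.66% and 9.01%. At the low end were olfactory receptors, with 0.949% and 0.951%, and vomeronasal receptors, with 0.845% and 0.405%. Known cartilage targets of Sox9 stood at 1.06% for Sox9 and 2.69% for H3K4me3, and injured tubule genes at 3.26% and 1.74%. Endothelial genes stood at 10.6% and 2.05%, where the Sox9 list of pellet 2 had 3 of the 11 (27.3%). Without that list the Sox9 mean was 5%, and in the full lists both antibodies stood at 13.6%. These lists are short, so 1 gene moves most of them by several percentage points, and they are described without a test.

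Among single members, Pgk1 had peaks in 6 of 8 lists, with 3 and 4 steps for Sox9 in pellets 3 and 4 and 3, 4, 2 and 2 steps for H3K4me3. Pax2 had 1 step for Sox9 in pellets 2, 3 and 4 and 2 and 1 steps for H3K4me3 in pellets 1 and 3. The frizzled receptor genes Fzd1 and Fzd5 each had 3 H3K4me3 lists and 1 Sox9 list. Rpl13 had 4 H3K4me3 lists (2, 1, 1 and 1 steps) and 1 Sox9 list. Junb had 3 H3K4me3 lists and no Sox9 list, while Sox8, a SoxE paralogue of Sox9, had 3 Sox9 lists and 2 H3K4me3 lists at 1 step.

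**Figure D5:**
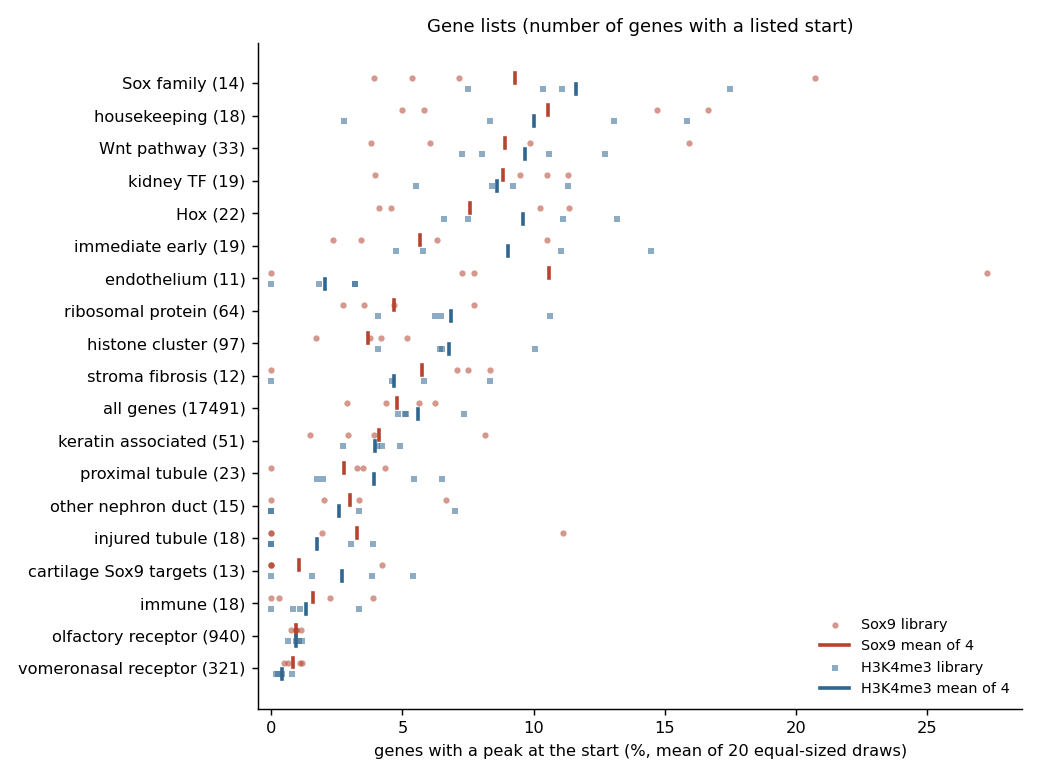
Genes with a peak at the start (x axis, %, mean of 20 equal-sized draws) for each gene list (y axis, with the number of genes that have a listed start); small symbols are the 4 lists of each antibody and bars their means. Housekeeping, Sox family, kidney transcription factor and Wnt pathway genes lie above all genes for both antibodies, and receptor genes of the nose lie below.

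The difference between the antibodies at 10 days was set against that at 48 h, pellet by pellet, in draws of 7706 peaks. At gene starts the Sox9 minus H3K4me3 difference was -4.95, 0.675, 1.42 and -0.554 percentage points at 10 days and 0.822, 0.563, 2.05 and -0.113 at 48 h (two-sided exact permutation test, p = 0.371). Of the 10 measures compared in this way, none passed, and the lowest p was 0.286, for the share of peaks above 1 step.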

How the data were processed

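The 16 deposited peak lists of the series were used, the 8 of 10 days for the main comparisons; the input libraries were not analysed here as separate samples. The submitters' processing notes name MACS3, Bowtie2, Bowtie, Partek 10 and the build mm10; filters and thresholds are not given in the sources used here. Peak names inside each list state that the input of the same pellet was its control. The deposited fold is the authors' ratio of antibody pileup to local background at the summit, and p and q were deposited as −log10 values. The deposited score is a display value and was not used. Fold and p were used within a list only. They served to solve the pileup (fold with 1 added to both terms, Poisson tail), which came within 0.05 of a whole number of steps for 99.8% or more of the peaks. Ranks of fold also helped to order the leading genes, and p chose the peaks in the alternative of equal length by p.

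Starts came from RefSeq promoters of GRCm38.p6, which list 21262 starts for 17491 of 21883 protein-coding genes. None is on chromosome 18. A summit within 1000 bp counted as a peak at the start. Medians, shares and gene counts were averaged over 20 seeded draws of 14793 peaks and compared by two-sided exact permutation of the lists; p-values are not adjusted over the measures.

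Named genes were 12 fixed genes, up to 8 leading genes of each one-antibody set and of all 8 lists, up to 5 regions of each kind and up to 3 members of a gene list with most lists. Single list members with tall H3K4me3 peaks in pellet 1 were named after their values were seen. The members, gene lists and tests were chosen with earlier results of these data known. The replicates are labelled as biological. Lists were paired by pellet on the ground of the labels' protocols; deviations of presence at gene starts from the group means correlated between -0.0123 and 0.0299 within pellets, and the best partner was the own one for 2 of 4. At most 13 peaks were identical in any 2 lists of an antibody. Alternatives were other draws, windows, heights, thresholds, presence rules, a replicate block and leaving out lists. The programs were tested on simulated data. Software was SciPy 1.17.1, pandas 2.3.3, NumPy 2.4.6 and Matplotlib 3.10.9 under Python 3.11.15.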

Additional observations from a re-analysis of the deposited data

Results flagged for a closer look

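In 5 of 36 groups of 4 lists that were examined, 1 list lay far from the other 3 (its gap to the nearest neighbour passed Dixon's 95% critical value, which chance gives in about 1 of 20 groups). In each of the 5 it was the H3K4me3 list of pellet 1. Most of these measures count the same summits at gene starts, so the 5 are not independent. Their number cannot be set against the rate for chance. It had 8.20% of its drawn summits at gene starts, where the next H3K4me3 list had 5.77%, and 1284 genes with a peak at the start, where the next had 899. In the full lists, its share of peaks of 3 or more steps was 1.28%, next to 0.682%. There its ratio of summits at starts to flanks was 9.14, next to 5.83, and its ratio of CpG-rich to CpG-poor promoters with a peak was 3.44, next to 2.86. Peaks on the mitochondrial chromosome, which were left out above, numbered 46 over the 4 Sox9 lists (5 to 20 each) and 61 over the 4 H3K4me3 lists (11 to 21 each).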

How the results depend on the processing

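Of 308 alternative values for 26 results, 243 were classed as unchanged. For tests that meant the same direction and side of the threshold, and for counts a value near the main count. No call was lost, since none of the main tests passed. The threshold was crossed by 2. The first was the share of peaks of 3 steps or more (-0.369). It did not pass without the H3K4me3 list of pellet 1 (-0.213) or without pellet 1 (-0.155). The other was the difference in the share above 1 step between 10 days and 48 h. It was -1.62 when replicate 4 of 10 days was left out and all 48 h replicates were kept. Leaving out pellet 1, chosen after seeing the data, turned the differences (Sox9 minus H3K4me3) at starts (0.522), in gene bodies (0.709), far from genes (-0.382), in wide peaks (0.00439), gene number (68.1), CpG ratio (0.00715) and motif share (-0.461). Among peaks of 2 or more steps it turned those at starts (1.14) and in gene number (1.63). The limit to peaks of 2 or more steps by itself turned wide peaks (1.80) and CpG ratio (0.0024), which were 2.37 and 0.00519 without pellet 1 as well. With all pellets, widths of 400 and 1000 bp turned wide peaks (0.112 and 0.0234), and equal length by p turned gene bodies (1.89) and far positions (-1.89). The same-pellet closeness turned with full lists (-0.321), equal length by p (-0.147) and without the regions of all 8 lists (-0.0141). Without single replicates the range was -1.003 to 0.607 for gene bodies, -0.338 to 1.15 for far positions, -0.0586 to 0.00755 for wide peaks, -0.556 to 0.890 for motif share and -0.00338 to 0.0955 for shared positions within minus between antibodies. For 10 days against 48 h these ranges were -1.38 to 0.327 for gene bodies, -3.22 to 5.66 bp for width, -0.0290 to 0.0092 for CpG ratio, -0.0689 to 1.39 for motif share, -0.0456 to 0.751 for log2 list length and -1.62 to -0.501 for the share above 1 step. Counts of genes with Sox9 only and H3K4me3 only moved as the rule or window did: 0.4 and 0.1 (2 or more steps), 1 and 6.85 (equal length by p), 33.9 and 46.65 (3000 bp), 5.5 and 12.15 (500 bp), 20.55 and 34.9 (either end), 0.2 and 0.75 (4 of 4 lists), 214.65 and 303.25 (2 of 4), and 5.1 and 4.8 (without pellet 1). Regions in all lists of Sox9 only and of H3K4me3 only numbered 9 and 110 in full lists without pellet 1, 1.25 and 0.85 in draws, and 14.55 and 6.6 in draws without pellet 1, again chosen after seeing the data. Genes with H3K4me3 only numbered 13.05 for 1-step peaks, 360 in full lists and 76 in full lists without pellet 1. Without single replicates the ranges were 2 to 14.25 and 4.65 to 27.35. With the replicate block (paired by pellet, equal draws within a pellet) the start difference was -0.825 (exact p = 0.875), and the block changed no call. The cause of these shifts was not tested, beyond fewer lists in those that leave lists out. Depth was not given, and a list of mostly 1-step peaks limits what any of these counts can show.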
